A study of Caenorhabditis elegans with 2 samples.

Results

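The genes described here were 34 protein-coding genes of Caenorhabditis elegans that run the cell cycle, copy DNA or form the MuvB and DREAM complexes, out of 19973 nuclear protein-coding genes. They were listed by name for their roles and not by their signal, and fell into 16 cyclins, kinases and their regulators, 10 replication genes and 8 MuvB and DREAM components. For each gene the promoter was taken as the stretch that begins 1500 bp before the annotated 5′ end and stops 500 bp after it (WBcel235, Ensembl release 115). A gene was counted in a list of regions when the summit of a region, its point of highest signal, lay in that stretch, and its score was the highest there.

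Cyclin-dependent kinases with their cyclins drive cells from one phase of the cycle to the next, CDC25 phosphatases activate them, and CIP/KIP proteins and ubiquitin ligases hold them back or remove their partners. Replication starts when CDC-6 and CDT-1 load the MCM helicase onto origins. MuvB is a protein complex that joins an E2F–DP dimer and a pocket protein to form DREAM, which is known in worms, flies and mammals as a repressor of cell cycle genes in cells that do not divide. ZTF-11 belongs to the MYT1 family of zinc finger transcription factors, which act as repressors when neurons form. In the second larval stage (L2) many cells of a worm divide while others have left the cycle.

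ZTF-11 was mapped by chromatin immunoprecipitation and sequencing (ChIP-seq) in whole L2 larvae, males and females pooled, of strain OP236, genotype unc-119(ed3) III; wgIs236. This is a stable transgenic line whose ZTF-11 carries GFP and FLAG at the C terminus, so both samples share the unc-119 mutation, the tagged transgene and whatever copies of the gene it adds. The age of the larvae is given as unknown, and the sources used here do not name the promoter that drives the transgene. There was 1 group with 2 biological replicates and no second condition, so nothing was tested between conditions, and values from the 2 replicates are given side by side. In a whole larva, binding in a few cells and weak binding in many cannot be told apart, and the lists hold no expression values with which to check tissues.

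The data were 4 lists of regions on ce11, each region with the authors' score of signal against a control. A thresholded set derived from all the other lists held 188 nuclear regions scored from 32.9 to 116.3. The long lists, which hold peaks together with background, had 20201 nuclear regions for the pooled replicates (median score 11.7) and 29974 for each replicate (medians 6.62 in replicate 1 and 5.58 in replicate 2). Scores set regions in order within a list and have no stated scale. Depth in reads is unknown, so no counting error can be given for a score.

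Thresholded ZTF-11 regions lay at the promoters of 2 of the 34 genes, lin-54 and lin-9, which both encode subunits of MuvB, and the replication clamp gene pcn-1 lay just below the threshold. These 2 genes were 5.88% of the members, against 0.941% of all genes. The pooled list had a summit at 17 members (50%), against 35.7% of all genes. Replicate 1 had one at 23 members (67.6%), against 48.6% of all genes. Replicate 2 had one at 18 members (52.9%), against 49% of all genes. The members' share thus exceeded that of all genes in replicate 1 and in the pooled list, and was near it in replicate 2.

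Both replicates had a summit at 15 members (44.1%), against 27.6% of all genes. In 8 members (23.5%) the replicates had summits within 100 bp of each other, against 8.65% of all genes. A pooled score of 14.9 or more, which put a gene in the top 10%, was found at 9 members (26.5%), against 10% of all genes. No promoter summit in any list was found for 8 members (23.5%), against 28.7% of all genes. These shares are descriptions of a list chosen with earlier results of these data known, and no test was made of them.

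The counts differed between the 3 classes of members. A pooled summit was present at 6 of 8 MuvB and DREAM genes (75%), at 4 of 10 replication genes (40%) and at 7 of 16 cyclins, kinases and regulators (43.8%), so the last 2 shares were near the background of 35.7%. The top 10% held 5 of the 8 MuvB and DREAM genes, 1 of the 10 replication genes and 3 of the 16 cell cycle regulators. Over all 8 MuvB and DREAM genes, those without a region counted as lowest, the median pooled score was 23.3, while the median gene of the genome had no region. Giving each summit only to the gene with the nearest 5′ end left 10 of the 34 members with a pooled summit, against 28.7% of all genes. The members' share was then near that of all genes, and the MuvB and DREAM genes fell from 6 of 8 to 3 of 8. The top 10% by this rule held 6 of the 34 members, against 10% of all genes. lin-9 was left as the 1 member with a thresholded summit.

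**Figure D1:**
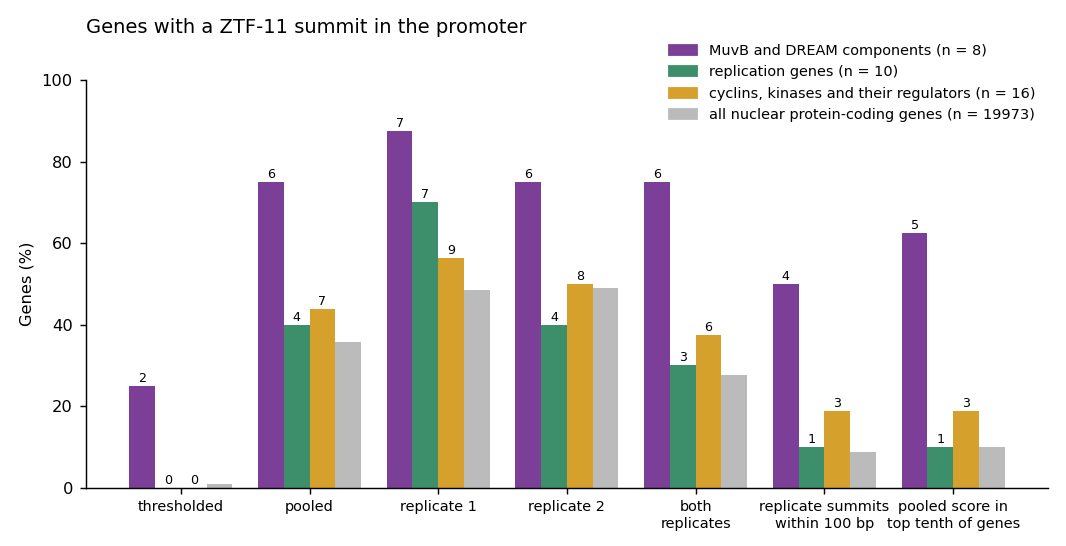
Share of genes (percent, vertical axis) with a ZTF-11 summit in the promoter, as bars for the 3 classes of members and for all genes in each list, with the number of member genes above each bar. The MuvB and DREAM genes reach 75% in the pooled list and 87.5% in replicate 1, while replication genes and cell cycle regulators lie at 40% and 43.8% in the pooled list, against 35.7% of all genes.

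lin-54 encodes the subunit of MuvB that touches DNA, and its promoter had the highest score among the members. The pooled region scored 53.3, the region of replicate 1 scored 25.9 and that of replicate 2 scored 29.0, with replicate summits 26 bp apart. Replicate 2 was thus slightly the higher at this gene. Counting lin-54 itself, 40 genes (0.20%) had a pooled score as high, and the region ranked 67 in the pooled list, mitochondrial regions included. lin-54 (WBGene00003037) lies on chromosome IV from 13241044 to 13243401 on the forward strand. The summit at 13240719 was intergenic, 325 bp before lin-54 and 68 bp before rpl-12, a ribosomal protein gene that runs the other way. The same region also lay in the promoter of tag-115, 1305 bp from its 5′ end, so position alone does not say to which of the genes the binding belongs.

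lin-9, a core subunit of MuvB, had the other thresholded region. It scored 36.5 in the pooled list, 24.2 in replicate 1 and 10.2 in replicate 2, with replicate summits 22 bp apart. The replicate 1 score was thus 2.37 times that of replicate 2. Over all pooled regions with both replicates within 100 bp, this ratio had a median of 1.20, and the lists share no stated scale. 140 genes (0.701%) had a pooled score as high. lin-9 (WBGene00002998) lies on chromosome III from 8900237 to 8904131 on the reverse strand, and the intergenic summit at 8904237 was 106 bp before its 5′ end and 1378 bp from that of unc-32, a subunit gene of the vacuolar proton pump. A second, lower pooled region of score 11.3 lay 1390 bp before lin-9, in an exon of the noncoding gene ZK637.19 and 94 bp from unc-32.

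The 101 bp around the pooled summits of lin-54, lin-9, pcn-1 and efl-1 are given to show what letters lie under the signal. These sites were among the highest-scoring of the members, but lin-53, which is not shown, scored above efl-1. Sequences are from the RefSeq WBcel235 genome and read along the strand of the named gene, 5′ to 3′. They cover chrIV:13240669-13240769 (forward strand) for lin-54, chrIII:8904187-8904287 (reverse strand) for lin-9, chrIV:4049688-4049788 (reverse strand) for pcn-1 and chrV:16965847-16965947 (reverse strand) for efl-1. Capitals mark matches on either strand to the E2F motif TTTCGCGC, to the motif TTTGAA, which resembles the cell cycle homology region read by LIN-54 proteins, and to AAAGTT, the core that MYT1 proteins bind.
lin-54: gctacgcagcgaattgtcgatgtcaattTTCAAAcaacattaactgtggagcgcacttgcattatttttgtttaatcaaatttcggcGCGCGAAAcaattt
lin-9: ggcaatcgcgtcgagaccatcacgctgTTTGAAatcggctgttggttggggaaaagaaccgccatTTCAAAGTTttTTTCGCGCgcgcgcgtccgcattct
pcn-1: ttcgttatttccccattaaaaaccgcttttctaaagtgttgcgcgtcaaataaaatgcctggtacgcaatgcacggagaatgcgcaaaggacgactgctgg
efl-1: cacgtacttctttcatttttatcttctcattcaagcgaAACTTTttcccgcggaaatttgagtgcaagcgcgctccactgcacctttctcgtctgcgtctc
In lin-54 the E2F motif began 37 bp past the summit and a TTTGAA match began 22 bp before it. In lin-9 the E2F motif began 26 bp past the summit, TTTGAA matches lay on both sides, and the one past the summit overlapped an AAAGTT match. The efl-1 window held an AAAGTT match that began 12 bp before the summit, and the pcn-1 window held no match to any motif searched. The lin-53 window (pooled score 29.1, against 26.4 for efl-1) held a TTTGAA match but no E2F or AAAGTT match.

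Among the E2F and pocket protein partners of MuvB, efl-1 had the highest score. It encodes an E2F-like protein, and its promoter scored 26.4 in the pooled list, 13.4 in replicate 1 and 11.8 in replicate 2. Both replicates were close in height here, but their summits were 148 bp apart, on either side of the pooled summit. 333 genes (1.67%) scored as high. efl-1 lies on chromosome V from 16958590 to 16965675 on the reverse strand, and the summit was 222 bp before it and 917 bp before fbxa-90 on the other strand. dpl-1, the DP partner of efl-1, had no pooled region. Its replicate 1 region scored 8.17 and its replicate 2 region 5.46, with summits 394 bp apart, so the replicates marked different places.

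lin-35, the pocket protein gene related to mammalian RB, scored 13.4 in the pooled list and 10.5 in replicate 1, and had no region in replicate 2. Its summit, 214 bp before lin-35, was nearer to vps-51, at 204 bp on the opposite strand. The promoter score was below the top 10% of genes. Outside the promoter, a pooled region in an intron of lin-35 scored 15.2, with 5.30 in replicate 2 and no replicate 1 summit within 100 bp. Another of score 13.6 lay 1599 bp before lin-35, inside vps-51, with 10.2 in replicate 1 and 7.18 in replicate 2.

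lin-53 encodes a histone-binding protein that MuvB shares with other chromatin complexes. Its promoter scored 29.1 in the pooled list, 17.7 in replicate 1 and 8.93 in replicate 2, with the closest summits 26 bp apart and replicate 1 at 1.98 times replicate 2. 254 genes (1.27%) scored as high. lin-53 lies on chromosome I from 9618196 to 9619760, and the summit was 239 bp before it and 228 bp from the divergent gene nra-2, so the site lay about as far from either gene.

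lin-52, a small MuvB subunit that contacts the pocket protein, had a different arrangement, with its higher summit inside the gene. This pooled region scored 20.1, with 9.95 in replicate 1 and 8.33 in replicate 2, and its summit lay in coding sequence 39 bp past the 5′ end. 721 genes (3.61%) scored as high. A second region of score 15.9 lay 722 bp before lin-52 and 40 bp before ZK632.9, which lies on the same strand and ends 126 bp before lin-52 begins. lin-37, the remaining MuvB subunit listed, had no promoter summit in any list, and ZK418.5 on the same strand ends 60 bp before it.

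**Figure D2:**
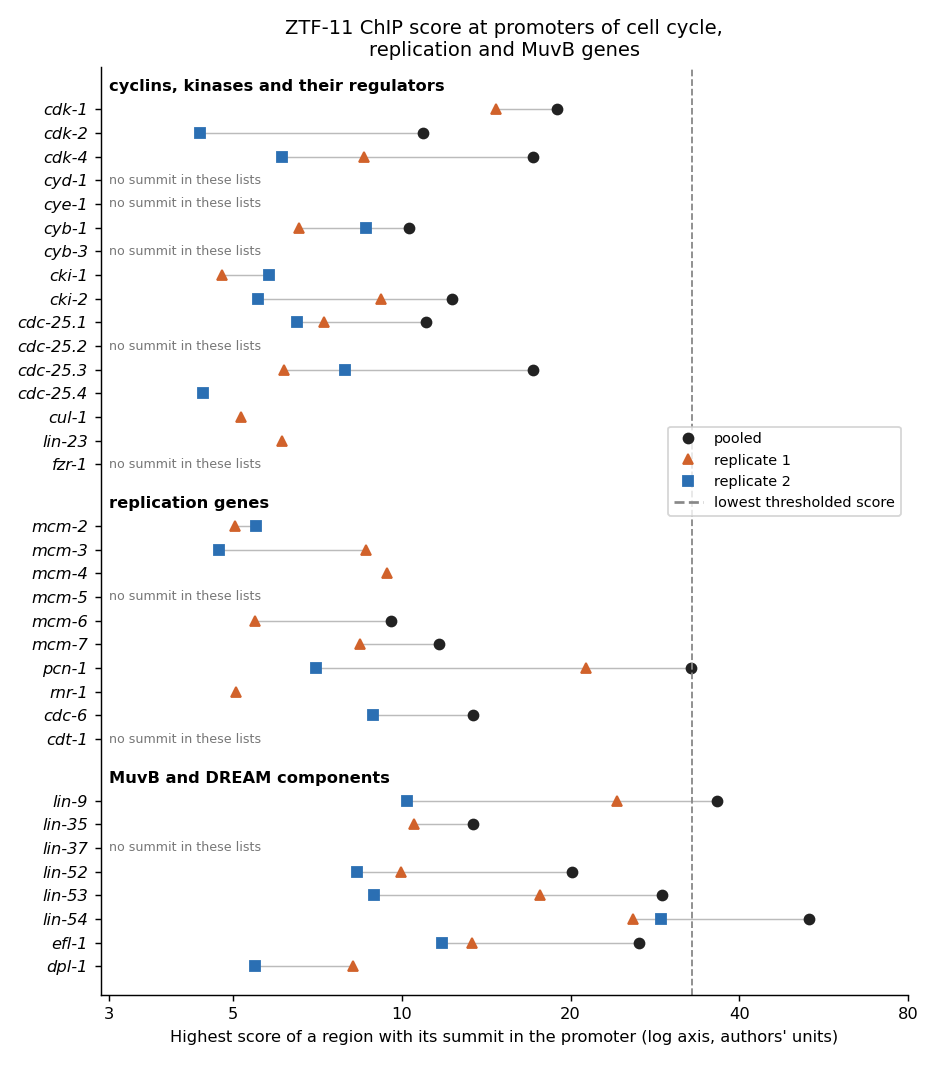
Highest ZTF-11 score at each member's promoter (horizontal log axis, authors' score) in the pooled list (black), replicate 1 (orange) and replicate 2 (blue), with the lowest thresholded nuclear score of 32.9 as a dashed line. lin-54 and lin-9 lie past the line and pcn-1 next to it, and 5 of the 6 pooled MuvB and DREAM values lie from 20.1 to 53.3.

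Of the 10 replication genes, pcn-1 alone was in the top 10%, the same share as over all genes. pcn-1 encodes PCNA, the sliding clamp that holds DNA polymerase on its template. It scored 32.8 in the pooled list, 21.3 in replicate 1 and 7.03 in replicate 2, with replicate summits 13 bp apart. Replicate 1 was thus at 3.03 times replicate 2, the widest ratio among the member summits. The lowest thresholded nuclear region scored 32.9, and 2 regions that missed the threshold scored above pcn-1. When the 210 highest regions of replicate 1 took the place of the thresholded set, pcn-1 was counted with lin-9 and lin-54, 3 members in all, and with the 210 highest of replicate 2 the count was 1, lin-54. pcn-1 (WBGene00003955) lies on chromosome IV from 4047937 to 4049448 on the reverse strand, and its intergenic summit, 290 bp before the 5′ end, lay in no other gene's promoter.

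The other replication genes had low scores or none. cdc-6, which loads the helicase, scored 13.4 in the pooled list and 8.88 in replicate 2, with none in replicate 1, and its summit was nearer to acin-1 (185 bp) than to cdc-6 (194 bp). The helicase subunit genes mcm-7 and mcm-6 scored 11.6 and 9.57 in the pooled list and had regions in replicate 1 (8.41 and 5.47) but not in replicate 2. The mcm-7 summit, 967 bp before the gene, was 200 bp from figl-1, and the mcm-6 summit, 151 bp before the gene, had no replicate summit within 100 bp.

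No pooled summit lay at the other 6 replication genes. mcm-3 and mcm-2 had a region in both replicates, but these lay 1153 bp and 892 bp apart. mcm-4 (9.40) and rnr-1 (5.06), the gene of the large subunit of ribonucleotide reductase, were present in replicate 1 only. Genes on the same strand end 207 bp before mcm-4, 203 bp before rnr-1 and 276 bp before mcm-5. mcm-5 and cdt-1 had no promoter summit in any list, though pooled summits of score 10.5 and 10.3 lay in introns of cdt-1. Of the 6 mcm genes that make up the replicative helicase, none had replicate summits within 100 bp of each other. Over all genes 8.65% did, so an absence in 6 genes is near that share.

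Among the kinases, cdk-1 and cdk-4 had the higher promoter scores and the cdk-2 promoter was low. cdk-1, the kinase of mitosis, scored 18.9 in the pooled list and 14.7 in replicate 1, and had no region in replicate 2. 884 genes (4.43%) scored as high. Its summit lay 54 bp before the 5′ end, on chromosome III at 9747418, and 225 bp from the divergent gene iff-1. cdk-4, the partner of cyclin D in the first gap phase, scored 17.1 in the pooled list, 8.55 in replicate 1 and 6.12 in replicate 2. The pooled summit was 353 bp before cdk-4 and 399 bp from F18H3.1, and the replicate 2 region nearest to it scored 6.04. cdk-2, the partner of cyclin E, scored 10.9 in the pooled list and 4.37 in replicate 2 only, below the median of each list. A higher pooled region of score 15.8 lay in an intron of cdk-2, 3972 bp past the 5′ end. Near it replicate 1 scored 7.24 and replicate 2 scored 6.60.

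Of the 4 cyclin genes listed, 1 had promoter summits. cyb-1, a mitotic B-type cyclin, scored 10.3 in the pooled list, 6.57 in replicate 1 and 8.62 in replicate 2, with replicate summits 205 bp apart. Its pooled summit was nearer to orc-5, a gene of the origin recognition complex (213 bp), than to cyb-1 (415 bp). cyb-3, cyd-1 (cyclin D) and cye-1 (cyclin E) had no promoter summit in any list.

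Among the CDC25 phosphatase genes, cdc-25.3 scored 17.1 in the pooled list, 6.16 in replicate 1 and 7.91 in replicate 2, but its summit was 1345 bp away and nearer to ZK637.15 (810 bp). cdc-25.1, which acts in the germline and early embryo, scored 11.0 in the pooled list, 7.26 in replicate 1 and 6.51 in replicate 2. cdc-25.4 had a region of score 4.41 in replicate 2 only, and cdc-25.2 had none.

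The kinase inhibitor genes were weakly marked at their promoters. cki-2 scored 12.3 in the pooled list, 9.18 in replicate 1 and 5.53 in replicate 2, with the summit in its 5′ UTR. A higher pooled region of score 16.1 lay in an intron of cki-2, 1385 bp past the 5′ end. It had 8.91 in replicate 1 and no replicate 2 summit within 100 bp. cki-1, the inhibitor that larval cells use to leave the cycle, had regions of 4.78 in replicate 1 and 5.80 in replicate 2, and none in the pooled list. The 2 replicate summits lay 326 bp apart. The ubiquitin ligase genes cul-1 (5.17), a scaffold, and lin-23 (6.12), an F-box protein, were present in replicate 1 only, and fzr-1, an activator of the anaphase-promoting complex, had no promoter summit.

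Several members without a promoter summit had pooled regions elsewhere in the gene. Of the 17 members that lacked one, 7 (41.2%) had a pooled summit within the gene outside the promoter, against 24.5% of all genes without a promoter summit, and no such summit was in the thresholded set. The 17 were also longer, at a median of 3474 bp, against 1900.5 bp, and the part of gene length in this share was not tested. The highest was in cye-1, with a score of 30.4, 1016 bp past the 5′ end. It lay in an intron that also holds a tRNA gene (WBGene00022955), in the exon of that tRNA gene, and replicate 2 (20.4) was far above replicate 1 (7.48) there. cyd-1 had an intronic region of score 24.9, 843 bp past its 5′ end, with 17.8 in replicate 1 and no summit within 100 bp in replicate 2.

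At fzr-1 a region of score 21.9 lay 1908 bp upstream, outside the promoter as defined and 604 bp from sqv-8, with 19.1 in replicate 1 alone. cdc-25.2, a long gene, held 11 intronic pooled summits, scored from 9.32 to 14.5, on both sides of the list's median of 11.7. Several of them had no summit of either replicate within 100 bp. A window of 3000 bp upstream would have added fzr-1, cki-1, mcm-2 and cdt-1 and brought the count to 21 members, against 49.9% of all genes.

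**Figure D3:**
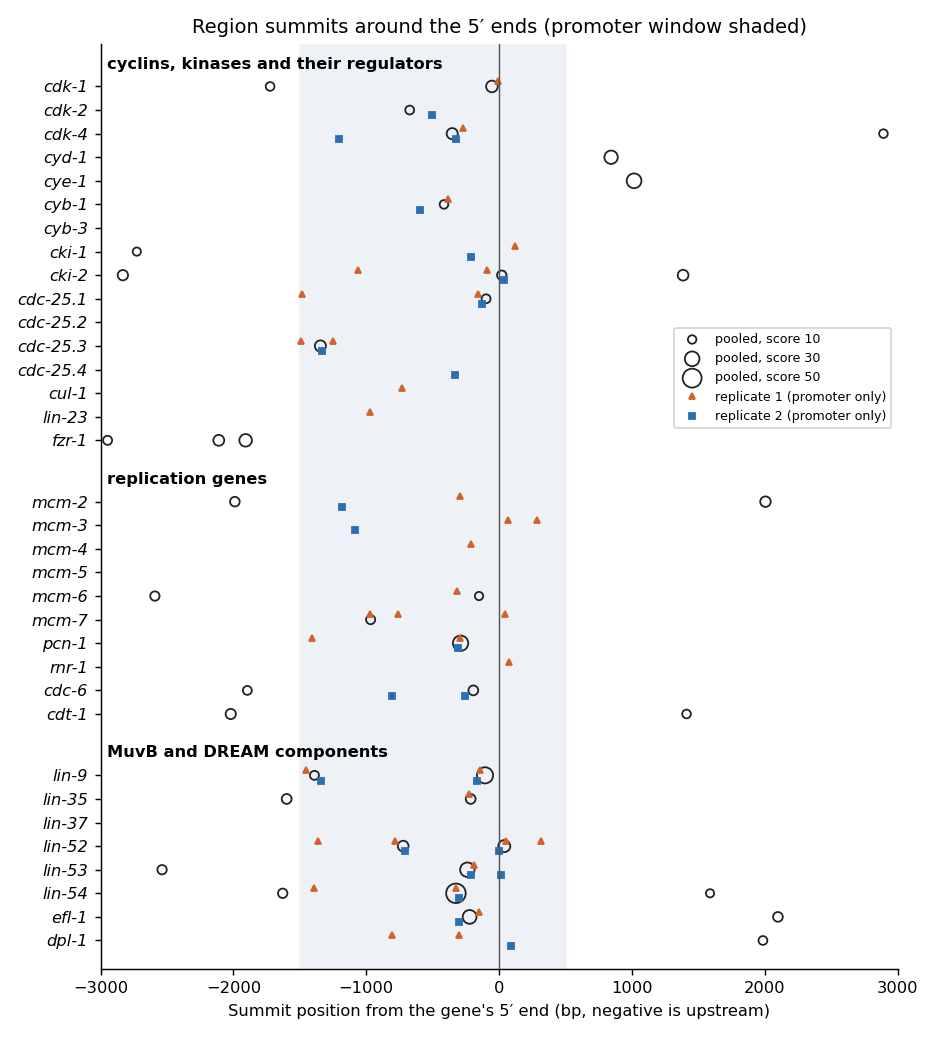
Position of region summits relative to each member's 5′ end (bp, negative is upstream), with the promoter window shaded. Circles are pooled summits with area growing with score, and triangles and squares are summits of replicate 1 and replicate 2 in the promoter. The highest pooled summits of lin-9, pcn-1, lin-53, efl-1 and lin-54 lie between 106 and 325 bp upstream, and those of cyd-1 and cye-1 lie past the promoter.

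The highest pooled summits of the 17 members lay close to the 5′ end and mostly between divergent genes. They were upstream in 15 of 17 members (88.2%), against 80.5% of all genes with a pooled summit, at a median distance of 222 bp, against 444 bp. In 13 members (76.5%) the summit also lay in another gene's promoter, against 33.8% of all genes with one, and in 7 (41.2%) another gene's 5′ end was nearer, against 21.8%. cdk-2, cki-2, pcn-1 and lin-52 were the 4 members whose highest summit lay in no other promoter.

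The replicates gave unequal support to the 19 pooled summits at member promoters. Both had a summit within 100 bp at 11 of these (57.9%), against 17.7% of all pooled regions and 86.7% of the thresholded nuclear regions. At the 11, the score in replicate 1 divided by that in replicate 2 had a median of 1.19 and lay between 0.696 and 3.03. Over all pooled regions with both, the median was 1.20. lin-54 and efl-1 were close in height in both replicates. For lin-54, 0.350% of genes scored as high in replicate 1 and 0.110% in replicate 2, and for efl-1 3.22% and 2.83% did. For pcn-1 these shares were 0.681% and 17.1%, and for lin-9 they were 0.466% and 4.90%.

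**Figure D4:**
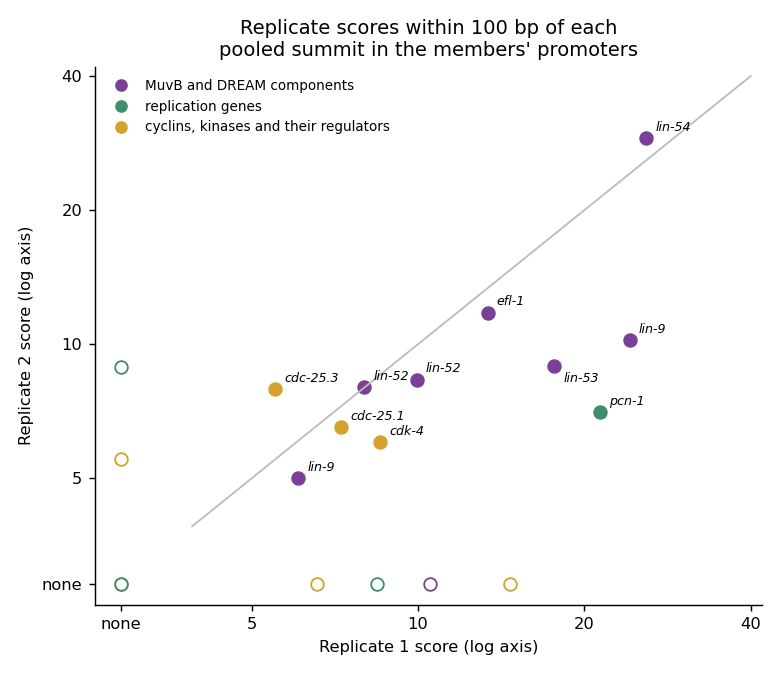
Score in replicate 1 against score in replicate 2 (log axes, authors' scores) at the 19 pooled summits in member promoters, coloured by class, with open circles where a replicate had no summit within 100 bp (2 coincide where both had none). lin-54 lies near the line of equal scores at 25.9 and 29.0, and pcn-1 and lin-9 lie on the replicate 1 side, at 21.3 and 24.2 against 7.03 and 10.2.

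E2F motifs were counted in all member promoters, with or without a region in them. TTTCGCGC, searched on both strands, was present in 9 of 34 member promoters of 2001 bp (26.5%), against 5.93% of all promoters. It was in 6 of the 10 replication promoters (mcm-3, mcm-4, mcm-6, mcm-7, pcn-1 and rnr-1), in lin-9 and lin-54, and in cye-1. The related TTTGGCGC was in 7 members (20.6%), against 5.90% of all promoters, and 5 of these were cell cycle regulators (cdk-1, cdc-25.1, cdc-25.2, cdc-25.4 and cul-1).

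Within 50 bp of a summit the picture was narrower. TTTCGCGC was at 2 of the 19 member summits (10.5%), those of lin-54 and lin-9 shown above, against 0.441% of all pooled summits and 3.19% of thresholded ones, and TTTGGCGC was at none. TTTGAA was at 6 of 19 (31.6%), against 33.5% of all pooled summits and 16.0% of thresholded ones. AAAGTT was at 4 of 19 (21.1%), against 20.1% of all pooled summits and 3.72% of thresholded ones. These 2 shares were near those of all pooled summits and above those of the thresholded regions. The sites were richer in G and C than the list at large, with a mean of 40.8% ± 7.93 (SD, n = 19 windows), against 33.6% ± 9.25 (SD, n = 20201) at all pooled summits and 48.8% ± 8.03 (SD, n = 188) at thresholded ones. The E2F motifs are themselves rich in G and C, and the part of base composition in these counts was not tested.

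Other genes of the same pathways were also counted. Of 80 further genes listed, 79 were matched to the annotation, and 0 of these had a thresholded summit in the promoter, against 0.941% of all genes. A pooled summit was present at 38 (48.1%), against 35.7% of all genes, and 13 (16.5%) were in the top 10%, against 10%. By class, the pooled list had 21 of 37 other cyclin, kinase, ubiquitin ligase and checkpoint genes (56.8%), 11 of 26 other replication genes (42.3%) and 6 of 16 other synMuv and E2F genes (37.5%). The synMuv genes among these act in vulval cell fate.

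The highest of the first class were cdk-7, a kinase that activates other cyclin-dependent kinases (26.9 in the pooled list, 5.84 in replicate 1 and 20.9 in replicate 2), emb-1, a subunit of the anaphase-promoting complex (24.4, with 11.1 and 12.2), and wee-1.3, an inhibitory kinase (22.2, with 18.1 in replicate 1 only). The emb-1 summit lay 694 bp before emb-1 but 25 bp inside K10D2.5, and also in the promoters of cid-1 and prp-19. Of the replication genes, orc-1 of the origin recognition complex scored 20.5, rfc-4 of the clamp loader 18.9 and rnr-2, the small subunit of ribonucleotide reductase, 15.1 in the pooled list. The orc-1 summit was nearer to dhs-11 (15 bp) than to orc-1 (249 bp), and the rnr-2 summit nearer to C03C10.7 (522 bp) than to rnr-2 (602 bp). The highest pooled scores of the synMuv class were lin-65 (16.4), lin-13 (12.8) and hpl-2 (12.0), a heterochromatin protein gene. All 3 were below lin-52, the fifth of the MuvB and DREAM genes.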

How the data were processed

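ZTF-11 ChIP-seq regions came from 2 biological replicates of whole L2 larvae, numbered as in the labels. The authors, per the file headers (text notes beside the lists), scored regions for each replicate and for the pooled replicates against a control and derived the thresholded set from these lists by the irreproducible discovery rate. The sources used here give no aligner, caller or threshold. The deposited score is a signal value per region against the control, on no stated scale. The deposited −log10 of the q value reaches at most 1.65 in the thresholded and pooled lists and was not used to rank. Summits came from the deposited offsets, and the ce11 lists alone were used.

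WBcel235, with the coordinates of ce11, supplied Ensembl release 115 genes and the RefSeq sequence. Counts were made with Python 3.11.15, numpy 2.4.6 and pandas 2.3.3, figures with matplotlib 3.10.9, and assignment of summits was tested on simulated data. Mitochondrial regions were left out of the counts of regions and genes. They were kept in the ranks and in the cuts to the highest regions of a list. The 210 highest regions match the full thresholded set, 188 nuclear and 22 mitochondrial. No test was run, since there is 1 group. Motifs were searched in 2001 bp promoters and 101 bp summit windows. A motif match is a description, not a binding site. Named were all members, genes that share a member's summit, and the 3 highest of each further list. The members and lists were chosen with earlier results of these data known. Alternatives covered window, 5′ end, assignment, thresholds and each replicate alone.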

Additional observations from a re-analysis of the deposited data

How the results depend on the processing

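With the promoter window, the transcripts used or the overlap of regions in place of summits changed, the thresholded count stayed at 2. The share of all genes was 0.596% with a narrow window (500 bp upstream) and 1.23% with a wide one (3000 bp upstream). It was 1.01% with the 5′ ends of every transcript and 0.986% with overlap. The narrow window gave 14 members with a pooled summit, against 21.7% of all genes, and 11 with a summit in both replicates, against 12.1%. The wide window gave 21, against 49.9%, and 20, against 46.9%, so the background moved with the counts. Giving a summit only to the nearest 5′ end lowered the thresholded count to 1 and the pooled count to 10, against 0.576% and 28.7%. At 10 of 34 members, the pooled share was then near that of all genes. The top 10% held 6 members with the nearest 5′ end and 10 with the narrow or the wide window, against 10% of all genes. The thresholded regions above their median score, taken over all of them or over the nuclear ones (the second chosen after seeing the data), held 1 member. This was against 0.431% and 0.486% of all genes. The 5000 highest pooled regions left 9 members, against 11.9%, and the 10000 highest of each replicate left 6 members with a summit in both, against 7.26%. Without replicate 1 or without replicate 2 the thresholded count ranged from 1 to 3 (against 0.896% and 0.901% of all genes), the pooled count from 15 to 18 (against 36.5% and 36.3%) and the top 10% from 6 to 8 members (the last chosen after seeing the data). No paired analysis was possible because there is 1 group only. The narrow window lost cdc-25.3, cdk-2 and mcm-7, and the nearest 5′ end lost cdc-25.3, cdc-6, cyb-1, lin-35, lin-53, lin-54 and mcm-7. Depth is unknown, and the long lists include background, so a low score is not shown to be binding, nor a missing region to be its absence.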
